A study of Mus musculus with 15 samples.

Results

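Histone genes were followed across mouse thymocytes that lacked N-ras or H-ras and across splenic CD4+ T cells with and without N-ras, before and after a low-level stimulus of the T cell receptor. The members were all probe sets, the groups of short oligonucleotides that measure a transcript on an Affymetrix array, whose listed gene symbols all began with the current histone prefixes (H1f, H2a, H2b, H3c, H3f, H4c, H4f, Macroh2a) or carried an older Hist1h to Hist4h name. The CD4+ T cell arrays held 60 such probe sets among 45101, listing 84 histone genes of 19324 genes listed, and the thymocyte arrays held 42 among 22690, listing 76 of 13319. All 42 were also on the CD4+ T cell arrays. Only 40 of the 60 probe sets, for 28 genes, listed 1 histone gene each, and the other 20 listed several near-identical histone genes that they cannot tell apart. The same held for 27 of the 42 on the thymocyte arrays, for 20 genes, against 15 shared. By symbol, 34 of the 60 probe sets belonged to the replication-dependent gene clusters and 26 to variant and germ-line histones, with 25 and 17 on the thymocyte arrays. A further 8 probe sets, most of them for H3f3a and H3f3b, also listed symbols outside these families and were kept out of all counts. No probe set was listed for H1f0, which was not analysed here.

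Core histones H2A, H2B, H3 and H4 form the spool on which DNA is wound, and linker histone H1 binds where the DNA enters and leaves it. The replication-dependent genes lie in clusters, are transcribed mainly in S phase, and give mRNAs that end in a stem-loop bound by the protein Slbp in place of a poly(A) tail. Variants such as H2A.Z, H2A.X, H3.3 and macroH2A come from genes outside the clusters, are made throughout the cell cycle as polyadenylated mRNAs, and mark promoters, DNA breaks, active genes or silent chromatin. In the thymus, dividing immature T cells make most of the replication-dependent histone mRNA, whereas most peripheral CD4+ T cells are at rest until they are stimulated. Per the methods, cDNA synthesis was primed with oligo(dT), and samples of low yield were amplified further, without a statement of which arrays. The part of these steps in the values of transcripts without a poly(A) tail was not tested.

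The thymocytes came from 6 week old mice of strain 129/SJ, with 1 array a genotype (WT, or KO for N-ras or H-ras). Both KO lines lack the gene in all tissues from the germ line, and the WT animals were littermates. The CD4+ T cells were sorted from spleens of N-ras KO mice and WT littermates of the same strain, aged 6 to 20 weeks, and kept overnight without a stimulus or with antibodies to CD3 and CD28 at 1 µg/ml, with 3 arrays in each of the 4 groups. Per the methods, each array held RNA of 1 mouse, and each repeat of the CD4+ T cell experiment used other mice, so p-values measure the spread between the 3 repeats.

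The values are log2 and relative: every probe set has a median of 0 over the 3 thymocyte arrays, and over the 3 unstimulated arrays of each genotype in the CD4+ T cells. A value thus carries no brightness, levels of different genes cannot be set against each other, and unstimulated WT and N-ras KO CD4+ T cells cannot be compared. On 3 probe sets Nras itself was 3.50-, 5.49- and 5.21-fold lower in N-ras KO thymocytes than in WT. Among the CD4+ T cell arrays those numbered 3 of N-ras KO and 1 of WT went against their labels, most widely on 1454060_a_at. There unstimulated and stimulated N-ras KO 3 read 2.04 and 2.09 log2, while WT 1 read -2.68 and -3.04 log2. In the same order, 1422688_a_at read 1.21, 0.80, -1.23 and -1.23 log2, and 1422687_at read 1.70, 1.21, -1.61 and -0.14 log2. On 1422687_at stimulated WT 1 did not go against its label, as it lay between stimulated WT 2 (0.38 log2) and WT 3 (-0.19 log2). The called and the widest responses below are also given with all of these N-ras KO 3 and WT 1 arrays left out. The arrays numbered 3 also stood apart on the control probe sets for Gapdh and actin, which reached 1.99 log2 on the array of stimulated WT 3 and -1.64 log2 on that of stimulated N-ras KO 3. In bulk RNA, fewer cells of a type and less RNA per cell cannot be told apart.

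Upstream sequences show how the clustered genes differ from the variants and from each other. Of the 84 histone genes, 76 matched a RefSeq promoter on GRCm38.p6. Within the 250 bases before the annotated start, searched on both strands, CCAAT was present in 78.4% of 51 promoters of cluster genes, in 34.6% of 26 promoters of variant genes and in 33.8% of all 32851 promoters. The octamer ATTTGCAT, which is bound by Oct1 in H2B promoters, was present in 17.6%, 3.85% and 1.60%, and TATAAA in 39.2%, 7.69% and 12.4%. All 13 H2B and all 13 H2A promoters of the clusters held CCAAT, against 3 of 12 H4 promoters. The octamer was present in 4 of these 13 H2B and 5 of these 13 H2A promoters. It was in 0 of the 3 H1, 10 H3 and 12 H4 promoters of the clusters. The full promoter entries, which also hold bases after the start, overlapped for 7 pairs of cluster genes on opposite strands. Each pair was 1 H2A and 1 H2B gene, so that some of these entries share bases. Whether the searched 250 bases overlap in each pair was not tested. The 120 bases before the start are printed for H2bc8, an H2B gene of the probe set that was lowest in N-ras KO thymocytes, for H2bc18, the H2B gene that was highest there, for the linker histone gene H1f2 and for the H3 gene H3c4, both highest in H-ras KO thymocytes. They lie at chr13:23571280-23571399, chr3:96269580-96269699, chr13:23738687-23738806 and chr13:23575643-23575762, all on the plus strand, and capitals mark matches of the 3 motifs in either orientation.
H2bc8: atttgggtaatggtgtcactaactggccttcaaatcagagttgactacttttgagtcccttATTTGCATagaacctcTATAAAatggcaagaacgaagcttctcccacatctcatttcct
H2bc18: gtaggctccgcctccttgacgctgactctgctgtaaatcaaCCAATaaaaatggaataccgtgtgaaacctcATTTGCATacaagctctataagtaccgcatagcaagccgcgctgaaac
H1f2: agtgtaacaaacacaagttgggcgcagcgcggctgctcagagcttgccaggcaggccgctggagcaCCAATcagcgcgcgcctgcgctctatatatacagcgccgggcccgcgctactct
H3c4: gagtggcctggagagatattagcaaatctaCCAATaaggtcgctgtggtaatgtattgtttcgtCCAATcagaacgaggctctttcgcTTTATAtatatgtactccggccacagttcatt
The octamer began 59 bases before the start of H2bc8 and 48 bases before that of H2bc18, so both held it. The probe set that lists H2bc8 also lists H2bc4 and H2bc6 and gives no value for H2bc8 alone. H1f2 and H3c4 held CCAAT and no octamer in these stretches.

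In thymocytes, clustered histone genes were lowest on the N-ras KO array and highest on the H-ras KO array. Of the 25 cluster probe sets, 21 had their lowest value in N-ras KO, 84.0% against 23.4% of all probe sets on the array, and 16 had their highest value in H-ras KO, 64.0% against 19.6%. The order N-ras KO below WT below H-ras KO held for 15 of 25, or 60.0%, against 8.02% of all probe sets, and the reverse order held for 0 of 25 against 6.91%. With 1 array per genotype there is no test and no estimate of error, and a p-value was not computed for any thymocyte value. Several of these probe sets list the same genes, so they are not independent of each other.

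**Figure D1:**
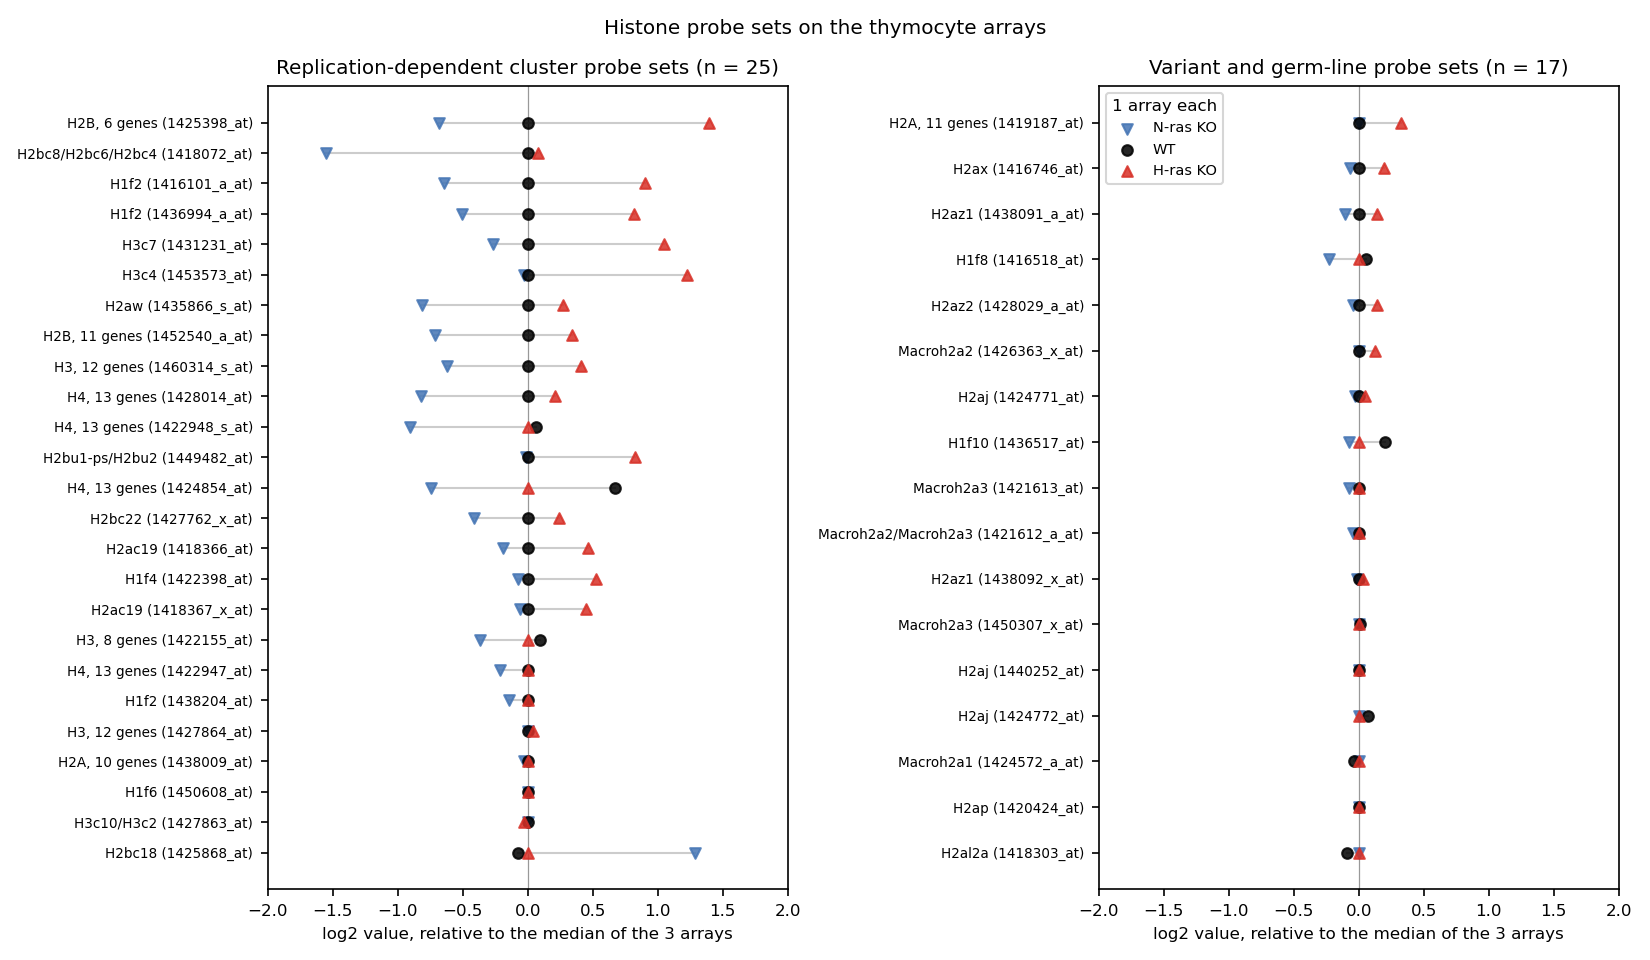
Each row is a histone probe set and each symbol the log2 value of 1 thymocyte array, relative to the median of the 3 arrays, with cluster probe sets (n = 25) on the left and variant and germ-line probe sets (n = 17) on the right, ordered by the difference between the KO arrays. N-ras KO lies left of H-ras KO for nearly all cluster rows, with H2bc18 at the bottom the other way round, while all variant values stay between -0.23 and 0.32.

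The comparison of WT with N-ras KO in unstimulated thymocytes set 1 array against 1 array. It gave differences between these arrays and cannot show that a gene depends on N-ras. At a threshold of 1.5-fold, 9 of 42 histone probe sets were higher in WT, all of them among the 25 of the clusters, where 1.09% of all probe sets were higher, and 1 was lower, where 1.55% of all were lower. The median difference was 0.26 log2 over the cluster probe sets, 0.03 log2 over the 17 variant probe sets and 0.00 over all. With 1 probe set for each gene or set of genes, 4 of 31 were higher.

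H2B genes gave the widest range. The probe set 1418072_at, which lists H2bc4, H2bc6 and H2bc8, read 0.00 log2 in WT, -1.55 in N-ras KO and 0.08 in H-ras KO, a 2.93-fold difference between WT and N-ras KO. N-ras KO was apart from the other two, which were nearly equal. A probe set for 6 H2B genes (1425398_at) read 0.00, -0.69 and 1.40 log2 in the same order, and one for 11 H2B genes (1452540_a_at) 0.00, -0.71 and 0.34. H2bc18, an H2B gene of the histone cluster on chromosome 3, was the exception, with -0.07 log2 in WT, 1.29 in N-ras KO and 0.00 in H-ras KO. It was the only member that was 1.5-fold higher in N-ras KO than in WT.

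H4 is encoded by many copies of 1 protein, and 4 probe sets on the thymocyte arrays list the same 13 H4 genes. N-ras KO was lowest on all 4. The probe set 1424854_at read 0.67 log2 in WT, -0.74 in N-ras KO and 0.00 in H-ras KO, 1422948_s_at read 0.06, -0.91 and 0.00, and 1428014_at read 0.00, -0.82 and 0.21. The fourth, 1422947_at, read 0.00, -0.21 and 0.00, so probe sets for the same genes differed among themselves in WT minus N-ras KO, from 0.21 to 1.41 log2. H-ras KO was highest on 1 of the 4.

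Linker histone H1f2 (H1.2), which compacts chromatin between nucleosomes, read 0.00 log2 in WT, -0.65 in N-ras KO and 0.90 in H-ras KO on 1416101_a_at. Another probe set, 1436994_a_at, read 0.00, -0.51 and 0.82, and the third, 1438204_at, 0.00, -0.14 and 0.00, with H-ras KO level with WT. H1f4 read 0.00, -0.07 and 0.53 log2. Among H2A genes, H2aw read 0.00, -0.82 and 0.27 log2, and the pair of probe sets for H2ac19 read 0.00, -0.19 and 0.46 and 0.00, -0.06 and 0.45. H2aw was thus apart in N-ras KO, and H2ac19 in H-ras KO.

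For H3, a probe set for 12 genes (1460314_s_at) read 0.00 log2 in WT, -0.62 in N-ras KO and 0.41 in H-ras KO. The probe sets with 1 H3 gene each differed from it: H3c7 read 0.00, -0.26 and 1.05 and H3c4 0.00, -0.03 and 1.22. Both were at least 2.06-fold above WT on the H-ras KO array and close to it on the N-ras KO array.

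The comparison of WT with H-ras KO ran the other way. Of the 42 histone probe sets, 6 were at least 1.5-fold lower in WT, all of the clusters, where 1.47% of all probe sets were lower, and 1 was higher, the H4 probe set 1424854_at, where 1.51% were higher. The 6 were a probe set for 6 H2B genes, H3c4, H3c7, H2bu2 with its pseudogene, and a pair for H1f2. The median difference was -0.24 log2 over the cluster probe sets, -0.03 over the variants and 0.00 over all. Without the probe sets whose names mark possible cross-hybridisation the cluster median was -0.14.

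The contrast between the KO arrays was the widest. H-ras KO was at least 1.5-fold higher than N-ras KO on 16 of the 25 cluster probe sets, and on 16 of 42 members, where 1.04% of all probe sets were higher, and lower on 1 of 42, where 1.38% were lower. The largest difference was 2.08 log2, or 4.24-fold, for the probe set of 6 H2B genes. The median was 0.74 log2 over the cluster probe sets, and by family it was 0.94 for 6 H2B, 0.83 for 4 H4, 0.70 for 6 H3, 0.60 for 5 H1 and 0.58 for 4 H2A probe sets. The 16 comprised 8 probe sets with 1 gene each, for 7 genes, and 8 shared ones. With 1 probe set for each gene or set of genes, 10 of 31 were higher.

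**Figure D2:**
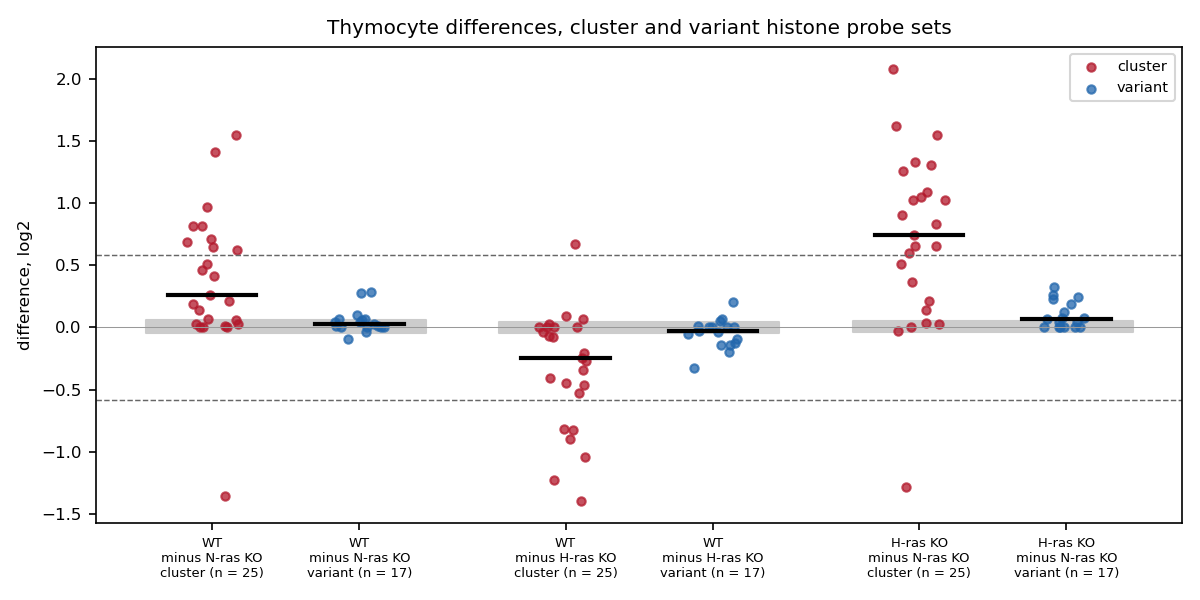
Points are histone probe sets, cluster (red, n = 25) and variant (blue, n = 17), plotted by their log2 difference between thymocyte arrays in the 3 comparisons, with black bars at the medians, grey bands from the lower to the upper quartile of all 22690 probe sets and dashed lines at 1.5-fold. Cluster medians lie at 0.26, -0.24 and 0.74, outside the bands, and no variant passes a dashed line.

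None of the 17 variant probe sets differed by 1.5-fold in any of the 3 comparisons. H2ax, whose product is phosphorylated at DNA breaks, read 0.00 log2 in WT, -0.06 in N-ras KO and 0.20 in H-ras KO. The H2A.Z genes H2az1 and H2az2, which are found at promoters, read 0.00, -0.10 and 0.14 on 1438091_a_at and 0.00, -0.05 and 0.14 on 1428029_a_at. On these probe sets the 3 genes followed the order of the clusters at a small size. The other H2az1 probe set, 1438092_x_at, was nearly flat at 0.00, -0.01 and 0.03. Probe sets that list H2az1 with another symbol did not follow that order. They read -0.05, 0.09 and 0.00 on 1456032_x_at and -0.01, 0.00 and 0.02 on 1416415_a_at. The linker variant H1f10 read 0.20, -0.08 and 0.00 log2, Macroh2a1 -0.03, 0.00 and 0.00, Macroh2a2 0.00, 0.00 and 0.13, and H2aj on 1424771_at 0.00, -0.03 and 0.05. The H3.3 genes H3f3a and H3f3b had no probe set of their own on these arrays, and the 5 probe sets that list them with other symbols lay between -0.34 and 0.25 log2.

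Genes that serve histone supply were set beside the histone genes. Of all 22690 probe sets, 1.04% to 1.55% differed by 1.5-fold in each direction of each comparison. Of 31 measured genes of S phase and DNA replication, 0 differed by 1.5-fold in either comparison with WT or between the KO arrays. In WT minus N-ras KO 23 were higher and 6 lower (median 0.12 log2), where 8091 and 7334 of all 22690 probe sets were. In H-ras KO minus N-ras KO 25 were higher and 3 lower (median 0.14 log2), where 7936 and 7183 of all were. Of 13 genes for the transcription and 3′ processing of histone mRNA, 0 differed by 1.5-fold. At the shares above, a count of 0 in lists of 31 and 13 genes cannot set them apart from all probe sets. Of 24 histone chaperone and import genes, Supt16 of the FACT complex was alone in passing 1.5-fold. It was higher in WT than with H-ras KO (0.81 log2) and lower with H-ras KO than with N-ras KO (-0.66 log2), and the medians of the list were 0.00 log2 against WT and 0.02 between the KO arrays. Neutrophil granule genes differed as well, with 8 of 11 lower by 1.5-fold or more on each KO array than in WT (WT minus N-ras KO and WT minus H-ras KO medians 1.41 and 1.72 log2, ranges 0.20 to 1.72 and 0.14 to 2.35) and a median of -0.35 log2 between the KO arrays, H-ras KO minus N-ras KO. Of 9 B cell genes 0 were lower than WT by 1.5-fold or more on the N-ras KO array and 2 on the H-ras KO array. Of 6 NK cell genes the counts were 0 and 1. The part of other cell types in the histone values was not tested. On the control probe sets for Gapdh and actin, the 5′ signal minus the 3′ signal differed by at most 0.11 log2 between arrays.

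In CD4+ T cells, the comparisons asked how each genotype responded to the T cell receptor stimulus and whether the responses differed. In WT cells, 0 of 60 histone probe sets passed an unadjusted p of 0.05 in limma, where 520 of 45101 did, so 0 of 60 were called higher and 0 lower at that p and 1.5-fold, where 0.53% and 0.51% of all were called. None of the 45101 probe sets, or 0%, passed an adjusted p of 0.05 in WT, in N-ras KO or in the difference of the responses, and the unpaired test of the study's methods also called 0 of 60 in WT. The median response was -0.03 log2 over the 34 cluster probe sets and -0.03 over the 26 variants, against 0.00 over all. A stimulus response in the same direction in all 3 pairs was seen for 7 of 60 upwards and 10 of 60 downwards, where 14.5% and 13.5% of all probe sets did so. No response of a histone gene was detectable in WT cells with 3 arrays a group, although 2 of 60 were called higher without the array of stimulated WT 2. The share of all probe sets called in that fit is not given here, so those 2 calls have no baseline.

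In N-ras KO cells, 2 of 60 histone probe sets were called lower, where 1.19% of all were, and 0 higher, where 1.16% were. Both list the H2B genes H2bc4, H2bc6 and H2bc8. On 1440330_at the unstimulated N-ras KO arrays read 2.22, -0.90 and 0.00 log2 and the stimulated ones -1.33, -1.76 and -1.03, so the groups did not overlap, and the response was -1.81 ± 0.64 log2 (SE, n = 3; limma, adjusted p = 1.00). The WT arrays read -0.05, 0.00 and 0.03 unstimulated and 0.60, -0.17 and -0.39 stimulated, with a response of 0.02 ± 0.64 log2. The difference of the responses was 1.83 ± 0.90 log2 (SE, n = 3; limma, adjusted p = 1.00) and was not called.

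On 1445565_at the unstimulated N-ras KO arrays read -0.47, 0.51 and 0.00 log2 and the stimulated ones -1.03, -1.48 and -0.43, so the groups overlapped slightly, and the response was -0.99 ± 0.35 log2 (SE, n = 3; limma, adjusted p = 1.00). The WT response was -0.12 ± 0.35 log2, and the difference between the genotypes was 0.88 ± 0.50 log2 and was not called. The third probe set for these genes, 1418072_at, which was lowest in N-ras KO thymocytes, gave N-ras KO pair differences of -1.37, -0.55 and 0.50 log2 and WT pair differences of -0.64, -0.85 and -0.65. It was thus lower in every WT pair and not in every N-ras KO pair, the reverse of the other two. Neither call held in the unpaired test of the study's methods, after a further quantile normalization, or without the array of stimulated N-ras KO 2, where the responses were -1.62 and -0.74 log2. Without the array of unstimulated N-ras KO 2 the second was not called either (-0.75 log2). Without the array of stimulated N-ras KO 3 there were 4 lower calls. With the arrays labelled WT 1 and N-ras KO 3 left out, the responses were -2.21 and -1.28 log2 and both were called, as was the H4 probe set 1424854_at (-1.08 log2). Without that of unstimulated N-ras KO 1, which read 2.22, the first response was called at -0.92 log2.

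**Figure D3:**
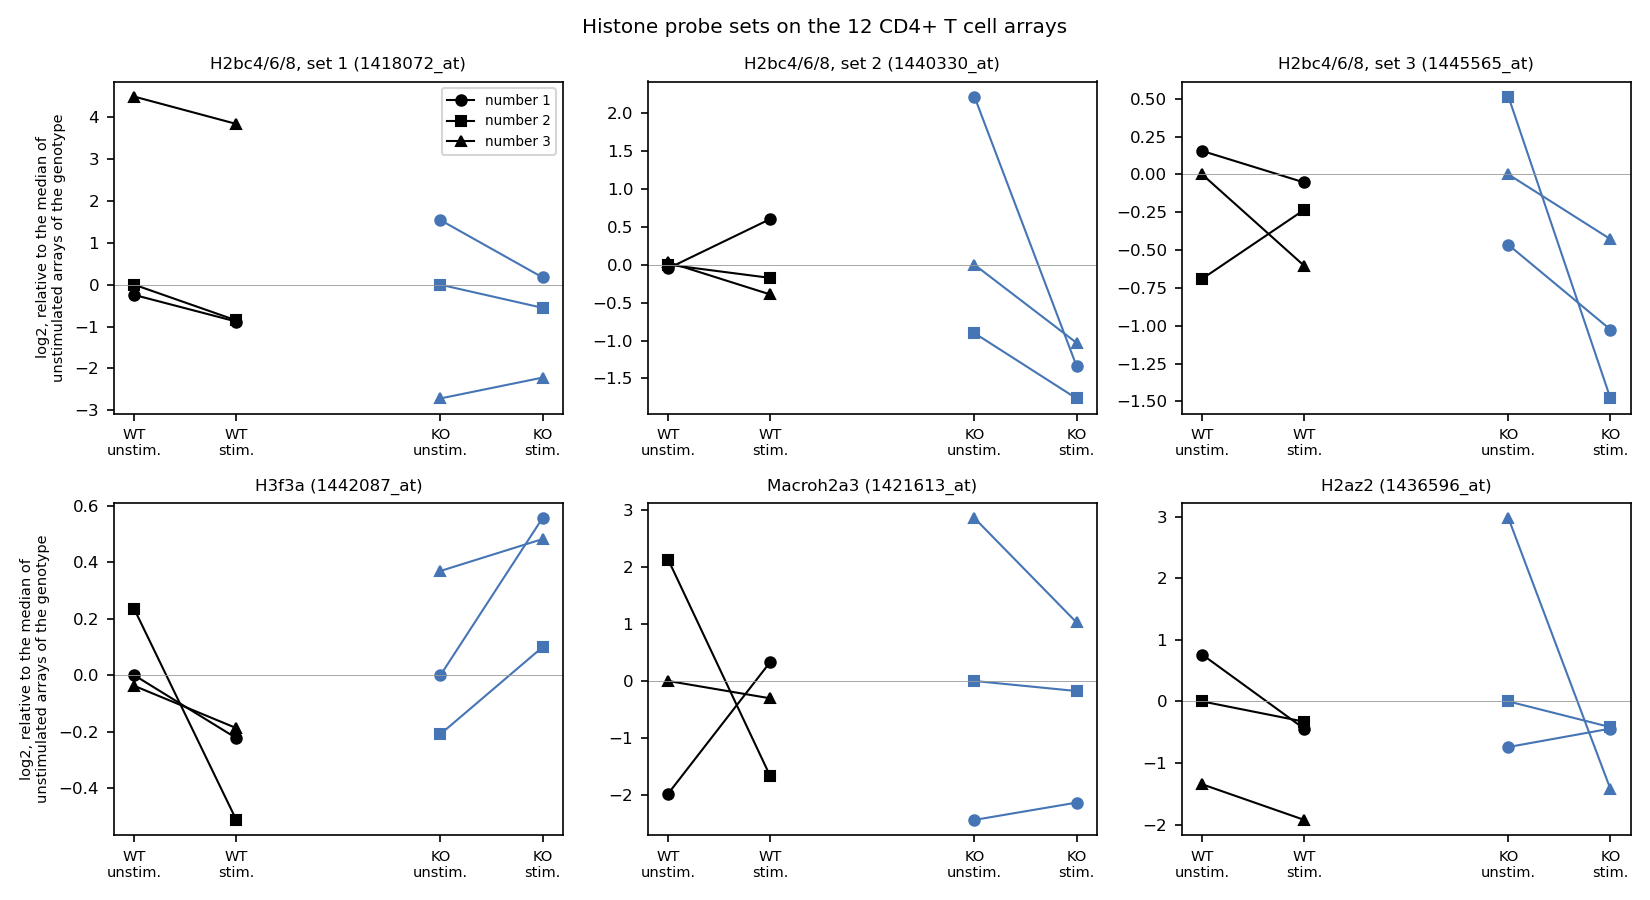
Log2 values of 6 histone probe sets on the 12 CD4+ T cell arrays, relative to the median of the unstimulated arrays of each genotype, with lines joining arrays of the same number within WT (black) and N-ras KO (blue). Probe sets 2 and 3 for H2bc4, H2bc6 and H2bc8 are lower after stimulation in each N-ras KO pair, and set 1 is spread from -2.72 to 4.50 by array number.

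The spread between arrays was wide on 1418072_at. Over the unstimulated WT arrays 1418072_at read -0.24, 0.00 and 4.50 log2 and over the N-ras KO arrays 1.54, 0.00 and -2.72, and the stimulated arrays of the same number followed, with -0.88, -0.85 and 3.84 in WT and 0.17, -0.55 and -2.22 in N-ras KO. The high and the low values lay on the arrays numbered 3, which stood apart on the Gapdh and actin controls, and the part of RNA quality in them was not tested. The unstimulated arrays spanned at least 2 log2 on 11 of 60 histone probe sets in WT and 13 of 60 in N-ras KO, 18.3% and 21.7%, against 8.11% and 11.8% of all probe sets. The SD of the 3 pair differences was at least 1 log2 on 6 of 60 and 12 of 60, against 7.44% and 13.9% of all.

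In the same direction in all 3 N-ras KO pairs were 9 of 60 histone probe sets upwards and 11 of 60 downwards, where 13.8% and 12.9% of all were. The median response in N-ras KO was -0.02 log2 over the cluster probe sets and -0.03 over the variants. The probe set for H2ac18 and H2ac19 (1438815_at), core H2A genes, was lower in all 6 pairs, by -0.94, -0.71 and -0.21 log2 in WT and -0.43, -1.61 and -0.84 in N-ras KO, without a call in WT (-0.62 ± 0.50 log2, SE; limma, adjusted p = 1.00) or in N-ras KO (-0.96 ± 0.50 log2; adjusted p = 1.00). With arrays paired by number within genotype, the standard error was 0.26 log2 and the N-ras KO response was called (limma, adjusted p = 0.644), the WT response not (adjusted p = 1.00). With the arrays labelled WT 1 and N-ras KO 3 left out the WT response was -0.46 log2 and that of N-ras KO -1.02 log2, neither of them called, and the cluster medians were 0.04 and 0.03 log2, on the other side of 0.

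Among the H4 probe sets, 1428014_at read 1.34, 0.00 and -0.87 log2 on the unstimulated N-ras KO arrays and 2.42, -0.26 and 2.10 on the stimulated ones, a response of 1.26 ± 0.78 log2 (SE, n = 3; limma, adjusted p = 1.00). In WT the response was -0.50 ± 0.78 log2. The difference between the genotypes, -1.76 ± 1.11 log2, was not called (limma, adjusted p = 1.00). The N-ras KO response rested on the pair numbered 3, with pair differences of 1.08, -0.26 and 2.98 log2. With the arrays labelled WT 1 and N-ras KO 3 left out it was 0.41 log2 and the difference was -1.06 log2. The 16 cluster probe sets at least 1.5-fold higher in H-ras KO than in N-ras KO thymocytes were also followed in the CD4+ T cells. Of these, 0 were called in any comparison, where 0.51% to 1.19% of all probe sets were called in each direction. None of the 16 passed an unadjusted p of 0.05 in limma. Of all 45101 probe sets, 520 did in WT, 1162 in N-ras KO and 586 in the difference. At such shares a count of 0 of 16 cannot set these probe sets apart from all others. The median response of the 16 was -0.06 log2 in WT and 0.02 in N-ras KO.

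**Figure D4:**
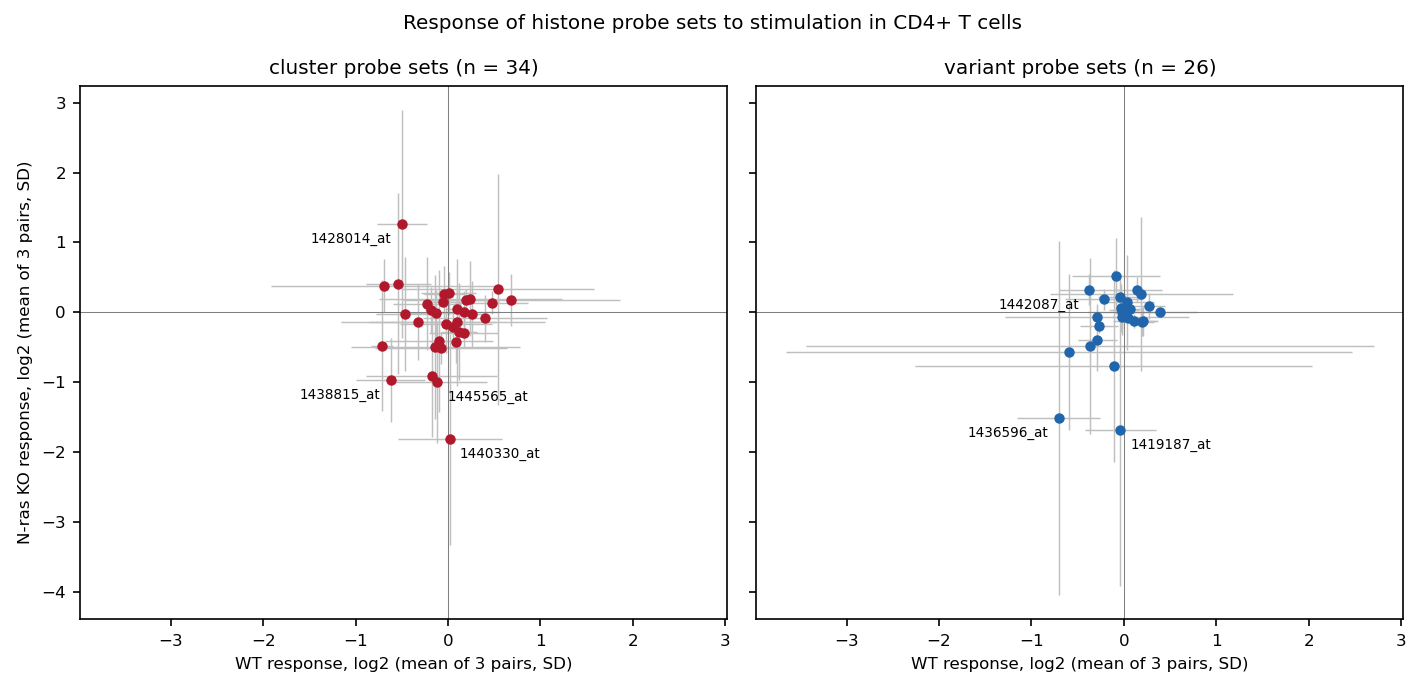
Each point is a histone probe set, plotted by its mean log2 response to stimulation over the 3 pairs in WT (horizontal) and in N-ras KO (vertical), with bars of 1 SD of the pair differences, for 34 cluster and 26 variant probe sets. Most points lie near 0 on both axes, and the N-ras KO bars of 1428014_at for H4 and 1436596_at for H2az2 reach across 0.

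Among variants, the difference of the responses called 1 of 60 lower in WT, where 0.627% of all probe sets were lower, and 0 higher, where 0.665% were. This was 1442087_at, listed for the H3.3 gene H3f3a. WT arrays read 0.00, 0.23 and -0.04 log2 unstimulated and -0.22, -0.51 and -0.19 stimulated, and N-ras KO arrays 0.00, -0.21 and 0.37 and 0.56, 0.10 and 0.48, so stimulated WT lay below unstimulated WT on every array and the N-ras KO groups overlapped. The responses were -0.37 ± 0.22 log2 in WT and 0.33 ± 0.22 in N-ras KO, and their difference was -0.70 ± 0.31 log2 (SE, n = 3; limma, adjusted p = 1.00). With the arrays labelled WT 1 and N-ras KO 3 left out the difference was -0.88 log2 and was not called. Leaving out 1 array at a time gave -0.57 to -0.86 log2 and ended the call for 10 of the 12 arrays, all but stimulated N-ras KO 2 and unstimulated N-ras KO 3. The 5 probe sets that list H3f3a and H3f3b with other symbols had differences from -0.13 to 0.13 log2.

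The other variants showed no call. H3f3b on its own probe set gave -0.27 ± 0.52 log2 in WT and -0.19 ± 0.52 in N-ras KO. H2ax gave pair differences of -0.55, -0.10 and 0.40 log2 in WT and 0.42, 0.04 and 1.11 in N-ras KO. H2az1 gave 0.21 ± 0.17 log2 and -0.12 ± 0.17 on 1438091_a_at. None of these responses passed the threshold, and neither did their differences between genotypes. H2az2 on 1436596_at gave pair differences of -1.20, -0.33 and -0.58 log2 in WT and 0.30, -0.42 and -4.40 in N-ras KO, so that 1 pair, from the arrays labelled N-ras KO 3, set the mean. With those and WT 1 left out the N-ras KO response was -0.06 log2. The other H2az2 probe set, 1428029_a_at, gave -0.29 ± 0.34 and -0.40 ± 0.34. H1f10 gave 0.14 ± 0.27 and 0.32 ± 0.27 log2, Macroh2a1 -0.03 ± 0.17 and -0.07 ± 0.17, and H2aj on 1424771_at 0.04 ± 0.42 and 0.15 ± 0.42 (SE, n = 3).

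Macroh2a3, listed by RefSeq as a transcribed pseudogene of the macroH2A family, had the widest pair differences in WT. Its pair differences on 1421613_at were 2.31, -3.79 and -0.30 log2 in WT and 0.30, -0.18 and -1.83 in N-ras KO. On 1450307_x_at they were 2.59, -3.55 and -0.15 in WT and 0.17, 0.32 and -1.93 in N-ras KO, so the pair of probe sets moved together by array while the mean responses, -0.60 and -0.57 on the first and -0.37 and -0.48 log2 on the second, stayed far inside the spread. With the arrays labelled WT 1 and N-ras KO 3 left out, the responses on 1421613_at were -2.05 log2 in WT and 0.06 in N-ras KO and were not called. Macroh2a2 on 1426363_x_at gave -0.29 ± 0.44 log2 in WT and -0.06 ± 0.44 in N-ras KO. Among linker histones of the clusters, H1f2 on 1436994_a_at gave -0.02 ± 0.36 and -0.17 ± 0.36 log2 and H1f4 0.24 ± 0.69 and 0.20 ± 0.69 (SE, n = 3).

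The genes of DNA replication were followed as well. Of 33 S phase and DNA replication genes, 1 was called higher in WT and 0 in N-ras KO, where 0.53% and 1.16% of all probe sets were. The medians were 0.25 and -0.06 log2, and 0 passed in the difference. In WT 24 were higher and 9 lower after stimulation, where 22791 and 22310 of all 45101 probe sets were. In N-ras KO 15 were higher and 18 lower, where 23318 and 21783 of all were. The WT response was above the N-ras KO response for 23 of 33, and for 22125 of all. The called gene was Uhrf1, which binds hemimethylated DNA and histone H3 behind the replication fork, with WT pair differences of 2.67, 0.56 and 2.06 log2 (1.76 ± 0.53 log2, SE, n = 3; limma, adjusted p = 1.00) and N-ras KO pair differences of 0.40, 0.78 and 1.23. With the arrays labelled WT 1 and N-ras KO 3 left out, the WT response of Uhrf1 was called at 1.31 log2. Thymidine kinase Tk1 gave 1.14 ± 0.58 log2 in WT and 0.96 ± 0.58 in N-ras KO, the helicase component Cdc45 0.65 ± 0.31 and -0.12 ± 0.31, and the cyclin gene Ccne2 0.24 ± 0.38 and -0.74 ± 0.38. Among 27 chaperone and import genes, 1 was called lower in WT, where 0.51% of all probe sets were, and 0 were called in N-ras KO. The 1 was Ubn2 of the HIRA complex that deposits H3.3 (-0.68 ± 0.28 log2; limma, adjusted p = 1.00). With the same arrays left out Ubn2 was at -0.47 log2 and was not called. The H3-H4 chaperone Asf1b gave 0.71 ± 0.49 log2 in WT and -0.31 ± 0.49 in N-ras KO, the repair factor Mms22l 0.43 ± 0.53 and -1.11 ± 0.53, and Atrx, which helps deposit H3.3, -0.41 ± 0.39 and 0.47 ± 0.39.

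Of 17 genes for histone mRNA transcription and 3′ processing, 0 were called in any of the 3 comparisons. Of all probe sets, 0.51% to 1.19% were called in each direction of each comparison. At such shares a count of 0 of 17 cannot set these genes apart from all probe sets. The medians of the 17 were 0.05 log2 in WT and -0.14 in N-ras KO. The U7 snRNP subunit Lsm10 gave 0.05 ± 0.34 and -0.61 ± 0.34 log2, the cap-binding genes Ncbp2 and Ncbp3 gave 0.45 ± 0.39 and -0.20 ± 0.39 and 0.23 ± 0.26 and -0.28 ± 0.26, and the cleavage factor Cstf2 -0.33 ± 0.32 and -0.13 ± 0.32 (SE, n = 3). Neutrophil granule genes were higher after stimulation on 10 of 11 in N-ras KO (median 0.66 log2) and lower on 8 of 11 in WT (median -0.06). Of these 11, 0 were called, a count that the same shares leave without weight. Of 9 B cell genes, 1 was called higher in WT, where 0.53% of all probe sets were. Their part in the histone values was not tested.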

How the data were processed

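Arrays were Affymetrix mouse designs. Per the labels and the study's methods, the authors computed log2 values in GeneSpring GX11 with RMA-16 and quantile normalization, set each probe set relative to the median of its controls, and deposited them without brightness, so no filter on dim probe sets could be made. Which arrays received the extra amplification that the methods name for low yields was not stated.

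Gene names came from the platform annotation, updated through RefSeq. On the CD4+ T cell arrays 34958 probe sets had 1 gene, 932 several and 9211 none listed, and on the thymocyte arrays 20393, 691 and 1606. H4bc24 counted as an H2B gene through its older name. Members and lists were chosen with earlier results of these data known.

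The CD4+ T cell arrays were fitted together with limma 3.58.1 (R 4.3.3), with Benjamini-Hochberg adjustment over 45101 probe sets and tested on simulated data. A call needed an unadjusted p under 0.05 and 1.5-fold, as in the study's methods. Thymocytes have 1 array a genotype and fold changes only. Same-numbered arrays within a genotype deviated together (correlations 0.361, 0.394 and 0.626 in N-ras KO and 0.458, 0.447 and 0.738 in WT), and on these correlations the numbers were taken to pair stimulated with unstimulated arrays. The methods say both that sorted cells were divided between stimulus and no stimulus and that each condition had 1 mouse of its own, so a shared mouse within a pair is not settled. Named genes were members with calls, 12 fixed linker and variant genes, and up to 4 genes of each of 3 pathway lists by the smallest p. Alternatives covered normalization, fit, pairing, probe set choice and left-out arrays. Probe sets were not matched to sequences.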

Additional observations from a re-analysis of the deposited data

Results flagged for a closer look

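On 2 of 60 histone probe sets every WT pair moved one way and every N-ras KO pair the other. Of all probe sets, 14.5% moved up and 13.5% down in all 3 WT pairs, and 13.8% and 12.9% in all 3 N-ras KO pairs. The share of all probe sets with opposite directions in the genotypes is not given here, so the count has no baseline. For H3f3a on 1442087_at the difference of the responses, WT minus N-ras KO, was -0.70 log2 (limma, adjusted p = 1.00). For H2ac19 on 1418367_x_at it was 0.50 log2 (limma, adjusted p = 1.00), with WT 0.08 and N-ras KO -0.42, and the name of this probe set marks possible cross-hybridisation. The other H2ac19 probe set, 1418366_at, had 0.10 in WT, 0.05 in N-ras KO and a difference of 0.04 log2, and 1438815_at, which lists H2ac18 and H2ac19, was lower in every pair of both genotypes. Neither difference passed the adjustment over all probe sets.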

How the results depend on the processing

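No histone probe set that was called in the main fit reversed its direction, and no alternative gave a member past the adjusted threshold. Results without a call did change direction. With the arrays labelled WT 1 and N-ras KO 3 left out, the cluster medians of both responses and the N-ras KO response of 1421613_at changed sign. A replicate block within genotype, which pairs arrays, gave 3 lower calls in N-ras KO, H2ac18 and H2ac19 (1438815_at) being the third, and 1 in the difference, and changed no other call. A replicate block across genotypes gave 4 lower calls in N-ras KO, and 1 higher and 0 lower in the difference. The 2 lower calls in N-ras KO became 1 in a fit of 2 groups, 0 in the unpaired test of the methods, 0 after quantile normalization and 0 with 1 probe set per gene. The 1 lower call in the difference became 0 after centring, after quantile normalization and with the arrays labelled WT 1 and N-ras KO 3 left out, and array quality weights gave 1 higher call. Leaving out each array in turn gave 0 to 2 higher calls in WT, 0 to 1 higher and 0 to 4 lower calls in N-ras KO, and 0 to 2 higher and 0 to 2 lower in the difference. The most lower calls in N-ras KO came without the array of stimulated N-ras KO 3, and 0 came without that of stimulated N-ras KO 2. The 2 higher calls in WT came without stimulated WT 2. Shares over all probe sets are not given for these alternatives, so their counts have no baseline.

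In thymocytes, a 2-fold threshold left 2 of 9 probe sets higher for WT minus N-ras KO, 0 of 1 higher and 3 of 6 lower for WT minus H-ras KO, and 10 of 16 higher for H-ras KO minus N-ras KO. With 1 probe set for each gene or set of genes the counts of higher probe sets in these comparisons were 4, 0 and 10, and the cluster medians against WT were 0.17 and -0.16 log2. Without probe sets that may cross-hybridise the cluster median of WT minus H-ras KO was -0.14 log2. The filter on dim probe sets was not run, since the values carry no brightness, and precision is limited by how many arrays there are. The causes of these changes were not tested.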
